A study of Mus musculus with 18 samples.

Results

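Insulin and insulin-like growth factor (IGF) receptor signalling genes were examined in messenger RNA captured with tagged ribosomes, a capture aimed at cortical astrocytes. The mice had or lacked an astrocytic deletion of the glucose transporter GLUT1 (Slc2a1). The group comprised 10 of the 21923 genes in the count table and was chosen by gene name for its place in the pathway: the receptors Insr and Igf1r, the docking proteins Irs1 and Irs2, the phosphoinositide 3-kinase (PI3K) subunit Pik3r1, the kinases Akt1, Akt2 and Gsk3b, and the effectors Tbc1d4 and Foxo1. The choice was made with earlier results of these data known. All 10 passed the filter on low counts and were among the 13296 genes tested.

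Ligand binding makes the insulin and IGF1 receptors phosphorylate themselves and the IRS docking proteins, which recruit PI3K to the membrane. The lipid made by PI3K activates AKT kinases, and these restrain GSK3, the vesicle-traffic regulator TBC1D4 and the transcription factor FOXO1 by phosphorylation. Both receptors are made by astrocytes, where they have been linked to glucose handling and growth control.

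Ribosomes were captured by translating ribosome affinity purification (TRAP). Intravenous AAV PHP.eB carrying hGFAP-DIO-EGFPL10a placed an EGFP tag on ribosomal protein L10a. Tagging required both activity of the human GFAP promoter and Cre, so the design aimed at cells that took up virus and recombined. Markers of neurons, oligodendrocytes and microglia were also counted in the captured RNA, and the share from untagged cells was not measured. The labels give the knockout mice (cKO) as GLUT1 flox/flox;GLAC +/wt and the controls as GLAC +/wt, both male, in the C57BL/6 background and housed in the home cage, and the study's methods describe GLAST-CreERT2, GLUT1 floxed mice and Cre-carrying controls with unfloxed GLUT1. Both groups therefore carried Cre, received the virus 7 days before tamoxifen, were given tamoxifen on 5 days at 8 to 10 weeks of age, and were examined 60 days later. Immunoprecipitates (IP) from 3 control mice (libraries 11, 15 and 19) and 4 cKO mice (libraries 1, 5, 9 and 17) were compared, and the total homogenate was not analysed here. As each library came from bulk tissue, fewer cells of a type and less RNA per cell cannot be told apart.

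Library totals were 19294382 to 40734343 estimated counts in control and 12570309 to 24173901 in cKO libraries, and 3 counts corresponded to 0.0762 to 0.222 CPM, that is, counts per 1000000 counts of the library. CPM was computed from estimated counts after scaling of the libraries by the trimmed mean of M-values, and it was not divided by transcript length, so levels were not compared between genes. Slc2a1, the deleted gene, measured 61.7, 59.3 and 57.6 CPM in control libraries 11, 15 and 19, and 61.9, 56.4, 59.4 and 58.3 CPM in cKO libraries 1, 5, 9 and 17 (exact two-sided permutation p = 0.857, smallest possible 0.0571). The Slc2a1 log2 fold change was -0.01 and turned to 0.01 without control library 11 and to 0.0078 without cKO library 5. This whole-gene count does not resolve the floxed exons and gave no check of the genotype labels. Every direction below therefore rests on the genotype named for the library. The study assessed the deletion separately, by reads over Slc2a1 exons and by qPCR, and those measures were not used here. Summed CPM of 10 astrocyte markers was 29242 to 44735 in control and 28836 to 56209 in cKO libraries, against 3557 to 4552 and 3105 to 4701 for 10 neuronal markers. Across all genes, 6 of 13296 passed an adjusted p of 0.05 in the quasi-likelihood test of edgeR, which is 0.0451% of genes.

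None of the 10 genes differed between genotypes by that test. Adjusted p was 1.00 for each, 0 of 10 had an unadjusted p under 0.05 beside 2.58% of all genes, and the edgeR exact test and DESeq2 also gave 0 of 10 by adjusted and 0 of 10 by unadjusted p. Control and cKO values overlapped for all 10, whereas 5.11% of all tested genes had groups that did not overlap. The mean was higher in cKO for 7 genes and lower for 3, with a median log2 fold change (cKO minus control) of 0.05, against 0.01 over all tested genes, of which 52.3% lay above 0. For 9 of the 10 the fitted change was smaller than 0.5 on the log2 scale, beside 11401 of all 13296 tested genes. The exception was Tbc1d4.

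**Figure D1:**
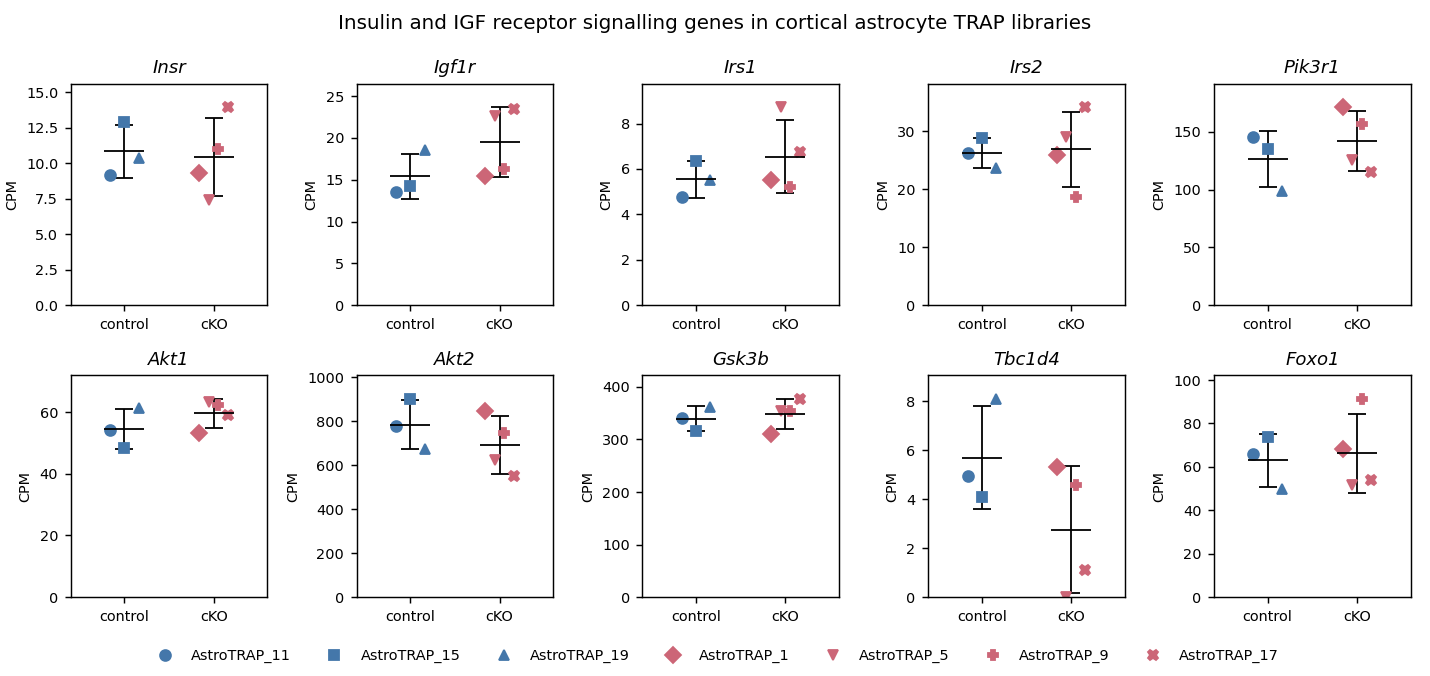
Levels of the 10 genes in each astrocyte TRAP library, in CPM on a linear axis that starts at 0. Each point is 1 library (blue, 3 control; red, 4 cKO), horizontal bars are group means and whiskers are SD; the groups overlap in every panel, and Tbc1d4 is at 0 in cKO library 5.

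The insulin receptor gene Insr (chromosome 8, 3150922 to 3279649, GRCm38.p6) measured 9.20, 12.9 and 10.4 CPM in control libraries 11, 15 and 19, and 9.32, 7.43, 11.03 and 13.9 CPM in cKO libraries 1, 5, 9 and 17. Both the lowest and the highest value belonged to cKO libraries, with the controls in between. Means were 10.8 ± 1.89 CPM (SD, n = 3) and 10.4 ± 2.76 CPM (SD, n = 4), a log2 fold change of -0.06 (SE 0.28; 95% interval -0.68 to 0.56). The sign turned to 0.09 without control library 15 and to 0.08 without cKO library 5.

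Igf1r (chromosome 7, 67952257 to 68233668), which encodes the receptor for IGF1 and IGF2, measured 13.6, 14.2 and 18.5 CPM in the controls and 15.4, 22.6, 16.3 and 23.5 CPM in cKO. The 2 highest values were those of cKO libraries 5 and 17, whereas cKO libraries 1 and 9 lay below control library 19. Mean levels were 15.4 ± 2.69 CPM (SD, n = 3) in control and 19.5 ± 4.19 CPM (SD, n = 4) in cKO. The log2 fold change of 0.34 (SE 0.23; 95% interval -0.17 to 0.84) was the largest positive value among the 10 genes, and it had the lowest unadjusted p of them, 0.168.

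The docking protein genes showed no separation either. Irs1 (chromosome 1, 82233105 to 82291439) measured 4.75, 6.36 and 5.53 CPM in control libraries 11, 15 and 19, and 5.49, 8.71, 5.22 and 6.74 CPM in cKO libraries 1, 5, 9 and 17. Libraries 5 and 17 again carried the highest values, and the other cKO libraries fell within the control range. The log2 fold change was 0.24 (SE 0.33; 95% interval -0.50 to 0.98), an interval that spans changes from -29.1% to 96.6%. Irs2 (chromosome 8, 10984681 to 11008929), the docking protein most tied to insulin action in liver, measured 26.1, 28.8 and 23.7 CPM in the controls and 25.9, 29.0, 18.6 and 34.1 CPM in cKO. Its lowest and highest values were both from cKO libraries, 9 and 17, and the means were nearly the same at 26.2 ± 2.53 CPM (SD, n = 3) and 26.9 ± 6.46 CPM (SD, n = 4). The Irs2 log2 fold change was 0.04 (SE 0.21; 95% interval -0.43 to 0.50) and became -0.03 without control library 19, -0.10 without cKO library 17 and -0.0027 without cKO library 5.

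Pik3r1 (chromosome 13, 101680761 to 101768217) encodes the p85alpha regulatory subunit that holds the catalytic subunit of PI3K and binds phosphorylated IRS proteins. It measured 145.5, 135.3 and 99.1 CPM in the controls and 171.2, 125.6, 156.7 and 115.3 CPM in cKO. The lowest value was that of control library 19 and the highest that of cKO library 1, with the remaining libraries interleaved. The log2 fold change was 0.17 (SE 0.18; 95% interval -0.23 to 0.56).

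The kinase genes had the narrowest intervals. Akt1 (chromosome 12, 112653821 to 112674884), the AKT form tied mainly to growth and survival, measured 54.3, 48.2 and 61.3 CPM in control libraries 11, 15 and 19, and 53.2, 63.5, 62.4 and 59.2 CPM in cKO libraries 1, 5, 9 and 17. Only cKO libraries 5 and 9 exceeded the highest control. The log2 fold change was 0.13 (SE 0.14; 95% interval -0.18 to 0.43).

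Akt2 (chromosome 7, 27591552 to 27640826), the AKT form tied to insulin-driven glucose uptake, measured 778, 900 and 675 CPM in the controls and 848, 625, 746 and 552 CPM in cKO. The 2 lowest values were those of cKO libraries 5 and 17, while cKO libraries 1 and 9 lay inside the control range. Means were 784 ± 113 CPM (SD, n = 3) and 693 ± 131 CPM (SD, n = 4), a log2 fold change of -0.18 (SE 0.17; 95% interval -0.56 to 0.20).

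Gsk3b (chromosome 16, 38089001 to 38246084), a kinase that inhibits glycogen synthase and is itself inhibited by AKT, measured 341, 316 and 362 CPM in control and 310, 354, 354 and 377 CPM in cKO libraries. All 7 values lay close together, with cKO library 1 lowest and cKO library 17 highest. The log2 fold change was 0.04 (SE 0.12), and its 95% interval, -0.23 to 0.30 or -14.8% to 23.5%, was the narrowest of the 10. The value was -0.01 without control library 15 and -0.0023 without cKO library 17.

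Tbc1d4 (chromosome 14, 101442360 to 101609281) encodes AS160, a Rab GTPase-activating protein that retains GLUT4 vesicles until AKT phosphorylates it. It measured 4.93, 4.07 and 8.08 CPM in control libraries 11, 15 and 19, and 5.31, 0, 4.57 and 1.11 CPM in cKO libraries 1, 5, 9 and 17. The cKO group was split: libraries 1 and 9 lay within the control range, and libraries 5 and 17 below it. The estimated counts behind these values were 193.7, 112.2 and 168.2 in control and 85.6, 0, 91.9 and 15.4 in cKO, so library 5, in which 3 counts would have been 0.116 CPM, was at 0 in a sample of 24173901 counts.

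The means of Tbc1d4 were 5.69 ± 2.11 CPM (SD, n = 3) and 2.75 ± 2.59 CPM (SD, n = 4), and the log2 fold change was -1.05 (SE 1.01; 95% interval -3.29 to 1.19). Leaving out 1 library at a time gave log2 fold changes from -1.58 (without cKO library 1) to -0.63 (without cKO library 5). The biological coefficient of variation fitted for Tbc1d4 was 0.934, against a median of 0.245 over all tested genes. On the log2 scale the change was smaller than the SD within groups, 2.17, a spread that includes cKO library 5 at 0 counts. The interval includes changes from -89.8% to 128%.

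Tbc1d4 had the largest SD of log2 CPM of the 10 genes over the 7 libraries. Its lowest values were those of cKO library 5, at 0 counts, and cKO library 17, at 15.4 counts. The likeness to other genes was not computed without these libraries. The tested genes whose log2 CPM followed it most closely were Crkl (r = 0.984), Diexf (r = 0.978) and Hist2h2be (r = 0.978), a description over 7 libraries that share depth and scaling, chosen as the highest of all tested genes. Crkl, a signalling adaptor, averaged 44.9 CPM in control and 38.4 CPM in cKO libraries. Diexf averaged 6.25 and 3.81 CPM, and Hist2h2be 11.8 and 8.37 CPM, in control and cKO libraries.

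Foxo1 (chromosome 3, 52268337 to 52350109) encodes the transcription factor that AKT keeps out of the nucleus. It measured 66.1, 73.6 and 49.7 CPM in the controls and 68.4, 51.4, 91.2 and 54.0 CPM in cKO. Control library 19 was lowest and cKO library 9 highest, and control and cKO values were interleaved between them. The log2 fold change was 0.07 (SE 0.22; 95% interval -0.41 to 0.54) and became -0.08 without control library 19 and -0.13 without cKO library 9.

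**Figure D2:**
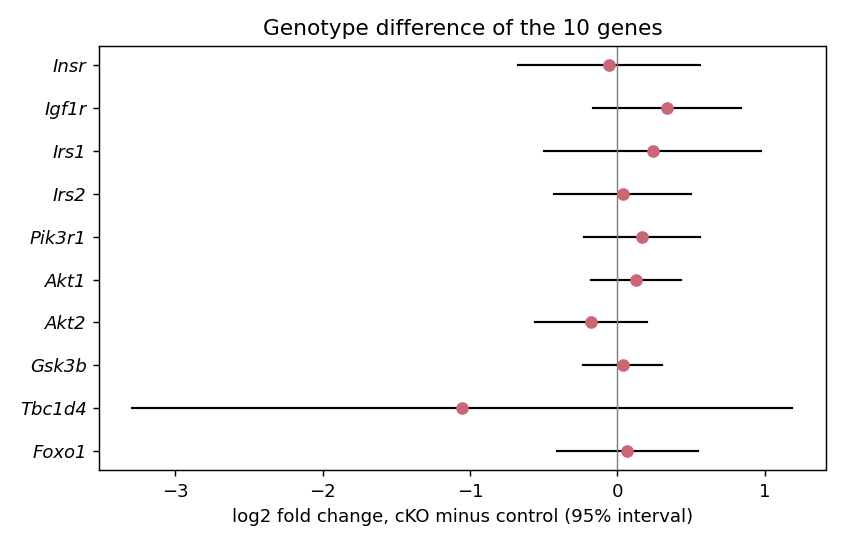
Fitted log2 fold change of each gene, cKO minus control, in the edgeR quasi-likelihood model (points) with 95% intervals (lines). Every interval includes 0; that of Gsk3b is the narrowest (-0.23 to 0.30) and that of Tbc1d4 the widest (-3.29 to 1.19).

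FOXO factors bind the letters TGTTTAC, and both strands (TGTTTAC or GTAAACA) were searched in RefSeq promoter windows of 300 bases (250 before and 50 after a gene's start, GRCm38.p6). Windows were found for 9 of the 10 genes, 14 windows in all, and 1 of the 14 held the motif, as did 3.65% of all 32851 windows. The window was that of Akt1, with the motif starting 161 bases before the gene's start. It is shown because it joins a FOXO motif to a kinase that acts on FOXO1, and the match is a description of letters, not a binding site. The 250 bases before the start of Akt1 (chr12:112674885-112675134, minus strand, motif in capitals) read:
Akt1: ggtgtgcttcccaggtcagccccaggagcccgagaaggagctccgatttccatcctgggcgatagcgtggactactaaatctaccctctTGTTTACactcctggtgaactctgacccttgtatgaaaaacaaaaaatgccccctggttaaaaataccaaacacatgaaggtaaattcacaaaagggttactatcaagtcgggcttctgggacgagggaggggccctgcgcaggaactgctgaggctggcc

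The spread of the 10 genes among libraries was then set beside the astrocyte marker level of each library. The mean log2 CPM of the 10 astrocyte markers (among them Gja1, Aqp4 and Slc1a2) was 10.54, 10.60 and 10.19 in control libraries 11, 15 and 19, and 10.76, 10.19, 10.34 and 10.13 in cKO libraries 1, 5, 9 and 17. Control library 19 and cKO libraries 5 and 17 were thus the lowest, and the same libraries had the highest mean log2 CPM of neuronal markers (7.63, 7.81 and 7.65, against 7.28 to 7.46 in the others).

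Over the 7 libraries, log2 CPM of Akt2 followed the astrocyte marker level (Pearson r = 0.905, exact two-sided permutation p = 0.00357; Spearman rho = 0.964, permutation p = 0.00278). Gsk3b ran the opposite way (r = -0.947, exact permutation p = 0.00119; rho = -0.964, permutation p = 0.00278). Igf1r (r = -0.832, exact permutation p = 0.0202; rho = -0.857, permutation p = 0.0238) and Akt1 (r = -0.806, exact permutation p = 0.0417; rho = -0.714, permutation p = 0.0881) were also lower where astrocyte markers were higher. Pik3r1 was higher there (r = 0.767, exact permutation p = 0.0448; rho = 0.75, permutation p = 0.0663). The remaining 5 genes had r between -0.470 (Irs1) and 0.557 (Foxo1).

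Such relations were frequent over the whole table. An unadjusted permutation p under 0.05 was found for 5 of the 10 genes and for 16.6% of all 13296 genes, and after adjustment over all genes 0 of 13296 passed, with adjusted p = 0.131 for Gsk3b, 0.158 for Akt2, 0.225 for Igf1r, 0.279 for Akt1 and 0.286 for Pik3r1. Leaving out the 2 libraries farthest from the median marker level (cKO library 1 and control library 15) gave r = 0.872 for Akt2, -0.861 for Gsk3b, -0.939 for Igf1r, -0.704 for Akt1 and 0.699 for Pik3r1 over 5 libraries. Both had the highest marker levels, so the lowest, control library 19 and cKO libraries 5 and 17, stayed in. The latter also had the highest scaling factors (1.08, 1.07 and 1.07, against 0.872 to 1.01 in the others). The part of scaling was not tested. The relation was looked for after the values of the 10 genes had been seen, and it was 1 of 3 marker summaries computed for each gene, 30 relations in all.

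The other summaries were the mean log2 CPM of the 10 neuronal markers and the summed CPM of the astrocyte markers on a log2 scale. Against the neuronal markers an unadjusted permutation p under 0.05 was found for 3 of the 10 genes and 16.3% of all genes, with 0 of 13296 passing after adjustment. These were Foxo1 (r = -0.914, exact permutation p = 0.00952; rho = -0.75, permutation p = 0.0663), Irs1 (r = 0.808, exact permutation p = 0.0317; rho = 0.929, permutation p = 0.00675) and Igf1r (r = 0.787, exact permutation p = 0.0464; rho = 0.714, permutation p = 0.0881). Adjusted p was 0.208 for Foxo1, 0.270 for Irs1 and 0.301 for Igf1r.

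Without the 2 libraries farthest from the median neuronal level (cKO libraries 5 and 17), r was -0.957 for Foxo1 but 0.294 for Irs1 and 0.426 for Igf1r over 5 libraries, so the latter relations rested on those libraries. Tbc1d4 had r = -0.739 with the neuronal markers (exact permutation p = 0.0817; rho = -0.5, permutation p = 0.267), and r was 0.761 without the same libraries. Against summed astrocyte CPM, 4 of the 10 genes (Gsk3b, Akt2, Pik3r1 and Igf1r) and 17% of all genes had an unadjusted permutation p under 0.05, and 0 of 13296 passed after adjustment. A genotype group of 3 or 4 libraries is too small for a correlation within it, and the part of cell-type content in the levels was not tested.

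**Figure D3:**
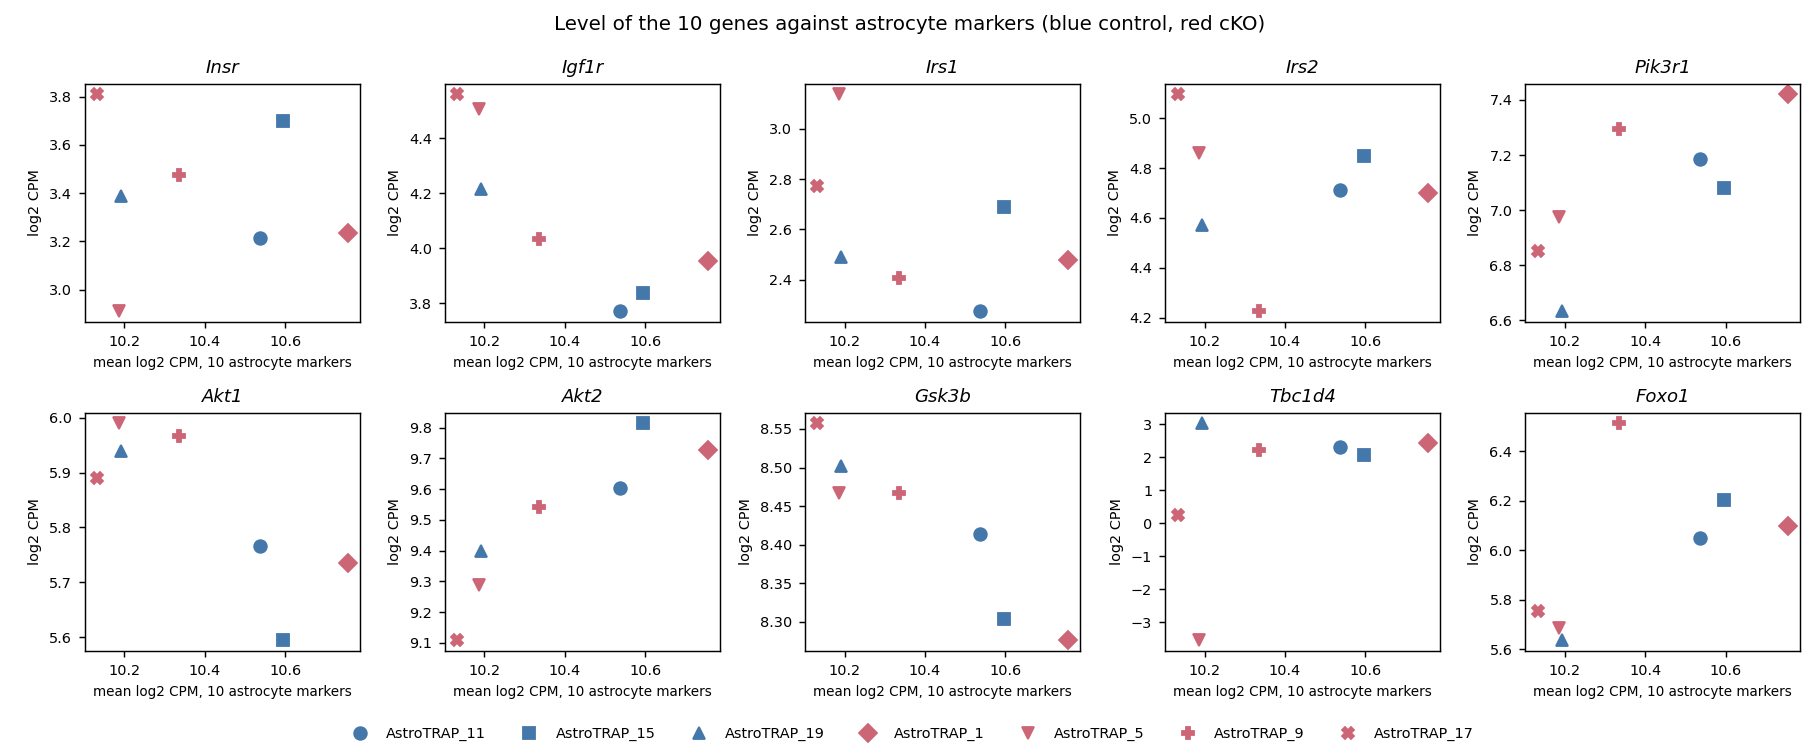
Level of each of the 10 genes (log2 CPM, vertical) against the mean log2 CPM of 10 astrocyte markers (horizontal), with 1 point per library (blue, control; red, cKO). Akt2 climbs and Gsk3b descends from left to right with control and cKO points interleaved, and the axes do not start at 0.

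Markers of other cell types were read in the same libraries. Oligodendrocyte markers had a lower mean in cKO for 8 of 8 genes, beside 6341 of all 13296 genes. By edgeR's quasi-likelihood test 2 of the 8 had an unadjusted p under 0.05, beside 2.58% of all genes, and 0 passed by adjusted p. Their summed CPM was 747 to 839 in control and 463 to 872 in cKO libraries. The mean was higher in cKO for 6 of 7 microglial, 5 of 6 endothelial and 1 of 4 mural markers, beside 52.3% of all genes. Of these markers 0 had an unadjusted p under 0.05 by the quasi-likelihood test. Some lay near the floor: the endothelial marker Tek was 0 in control library 11 and cKO libraries 5 and 17, and Slco1a4 in cKO library 17. Summed CPM was 62.2 to 80.5 and 50.7 to 104 for 7 microglial markers, 12.9 to 24.8 and 16.6 to 39.7 for endothelial markers (Pecam1 and Cdh5 among them did not pass the filter on low counts), and 39.2 to 45.8 and 42.5 to 59.97 for mural markers, in control and cKO libraries. The oligodendrocyte precursor markers Pdgfra and Cspg4 together were 0.673 to 4.73 CPM in control and 0.774 to 6.15 CPM in cKO libraries, with Cspg4 at 0 in control library 19 and cKO libraries 5 and 17. A fit was also made with the mean log2 CPM of the oligodendrocyte markers as a covariate. Its log2 fold change was -0.47 for Insr, 0.62 for Igf1r, 0.57 for Irs1, 0.20 for Irs2 and -0.06 for Pik3r1. It was 0.22 for Akt1, -0.38 for Akt2, 0.08 for Gsk3b, -5.60 for Tbc1d4 and -0.40 for Foxo1. The lowest adjusted p among the 10 genes in that quasi-likelihood fit was 0.630. The covariate was 5.22 to 5.51 in control and 4.40 to 5.40 in cKO libraries, so it was partly confounded with genotype. The fit has 7 libraries for 3 coefficients, and the part of these markers in the levels of the 10 genes was not tested.

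Beyond the 10 genes, 83 other genes of the pathway were listed by role, and 76 of them passed the filter on low counts. By edgeR's quasi-likelihood test with adjustment over all genes 0 of 76 differed between genotypes, and the edgeR exact test and DESeq2 also gave 0. An unadjusted p under 0.05 was found for 3 of 76 (3.95%) by the quasi-likelihood test and for 2 of 76 (2.63%) by each of the other tests, beside 2.58%, 2.93% and 3.18% of all genes. The mean was higher in cKO for 41 genes and lower for 35, with a median log2 fold change of 0.02.

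Among the ligands and binding proteins, Ins1 had no counts and Ins2 at most 16 counts in a library. Igf1, the main IGF receptor ligand, measured 1.38 to 2.26 CPM in control and 1.49 to 3.06 CPM in cKO libraries (log2 fold change 0.32, SE 0.57), and Igf2 0.762 to 3.17 and 0.679 to 3.60 CPM (-0.17, SE 0.76; 0.29 without control library 19 and 0.09 without cKO library 1). Igfbp2, which binds IGFs outside the cell, was 450 to 522 CPM in control and 402 to 514 CPM in cKO libraries, with a log2 fold change of -0.03 (SE 0.13; 95% interval -0.32 to 0.26) that turned to 0.02 without control library 11 and 0.03 without cKO library 9. Of the 8 genes of this role that were tested, 4 had a higher and 4 a lower mean in cKO. Igf2r, a receptor that clears IGF2, had a log2 fold change of 0.15 (SE 0.45; -0.16 without control library 11 and -0.11 without cKO library 17), and the docking protein gene Irs4 did not pass the filter, with at most 27 counts in a library.

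Among the genes that make and remove the PI3K lipid, the catalytic subunit gene Pik3ca (log2 fold change 0.29, SE 0.19) and the regulatory subunit gene Pik3r2 (-0.17, SE 0.13) had overlapping groups. Inppl1, which encodes the lipid 5-phosphatase SHIP2, measured 35.5, 36.8 and 33.4 CPM in control libraries 11, 15 and 19, and 52.2, 43.9, 47.6 and 50.9 CPM in cKO libraries 1, 5, 9 and 17. Every cKO library lay above every control library, with a log2 fold change of 0.47 (SE 0.14; 95% interval 0.17 to 0.77; unadjusted p = 0.00581 and adjusted p = 1.00 by edgeR's quasi-likelihood test). Inppl1 had the lowest unadjusted p of the 76 genes, and leaving out 1 library at a time gave log2 fold changes of 0.43 to 0.51.

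The mTOR branch, which couples AKT to protein synthesis, held the remaining genes with an unadjusted p under 0.05, and the other kinases held none. Eif4ebp2, a repressor of cap-dependent translation, measured 23.1, 22.6 and 22.9 CPM in control and 29.2, 32.2, 26.1 and 41.4 CPM in cKO libraries (log2 fold change 0.49, SE 0.18, unadjusted p = 0.0226). Mtor, the kinase at the centre of the branch, measured 16.9, 20.8 and 19.9 CPM in control and 26.2, 26.9, 23.0 and 23.9 CPM in cKO libraries (log2 fold change 0.38, SE 0.17, unadjusted p = 0.0474). Neither gene had overlapping groups, and neither passed the adjusted threshold (adjusted p = 1.00). For Mtor the unadjusted p was 0.0661 by the edgeR exact test and 0.0521 by DESeq2. It was 0.184 by the quasi-likelihood test without control library 11. Leaving out 1 library at a time gave log2 fold changes of 0.29 to 0.44 for Mtor and 0.35 to 0.57 for Eif4ebp2. Of the 14 genes of the branch 8 had a higher and 6 a lower mean in cKO, among the latter Tsc2, an inhibitor of mTOR complex 1 (-0.11, SE 0.17; 0.09 without control library 15). Pdpk1, the kinase that activates AKT, had a log2 fold change of 0.10 (SE 0.12) and Gsk3a of 0.18 (SE 0.41; -0.02 without control library 15).

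Groups did not overlap for 7 of the 76 genes, beside 5.11% of all genes, and the cKO libraries were the higher ones for all 7, beside 2.35% of all genes (2.76% had the control libraries higher). These were Inppl1, Eif4ebp2, Mtor, Pdpk1, the adaptor Grb2, the sorting receptor Sort1 and the cell-cycle inhibitor Cdkn1b. The last 3 were named after their values were seen. The list was chosen with earlier results of these data known, so no set test was run and the shares are a description only. Tbc1d1, a relative of Tbc1d4, had a log2 fold change of 0.51 (SE 0.57) that was 1.35 without control library 11 and 0.11 without control library 19, and Foxo3, a relative of Foxo1, of 0.01 (SE 0.13; 95% interval -0.29 to 0.31), with overlapping groups for both. Foxo3 turned to -0.05 without control library 11, -0.02 without cKO library 5 and -0.0047 without cKO library 17.

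**Figure D4:**
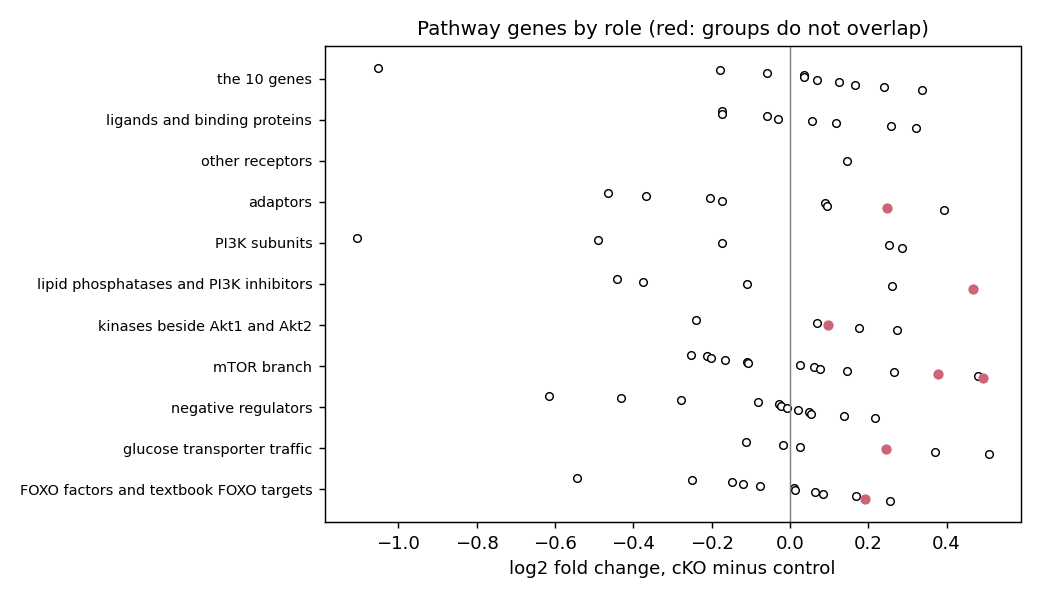
Fitted log2 fold change (cKO minus control) of the 10 genes and of the 76 other tested pathway genes, 1 point per gene, arranged by role. Filled red points mark the 7 genes whose control and cKO libraries do not overlap, all with higher values in cKO; the points of most roles lie on both sides of 0.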

How the data were processed

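RNA from TRAP immunoprecipitates was sequenced with Smart-seq2 libraries. Per the labels and the study's methods, the authors trimmed reads with cutadapt 1.15, assigned them to GENCODE vM17 transcripts (GRCm38) with kallisto 0.44.0, and deposited estimated counts per gene symbol without normalization. Tool versions are from the submitters' processing notes. The table held 18 columns; 7 were tied to a genotype through the animal numbers in the study's source data, and 11 with no stated fraction or genotype were not used. The labels list 5 control and 4 cKO IP samples. The study's methods leave out samples with few reads or a high content of neuronal transcripts. Each column carries a library number and was taken as 1 mouse. The p-values of the genotype fits rest on the spread between these libraries, estimated with information shared over genes. Correlation p-values come from reordering values over all 7 libraries, both genotypes together.

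Estimated counts were rounded, filtered with filterByExpr, scaled by TMM and tested with edgeR 4.0.16 (quasi-likelihood, genotype only, Benjamini-Hochberg over 13296 genes, threshold 0.05) in R 4.3.3. Intervals are 95% intervals of the fit. log2 CPM used a prior count of 2. Alternatives were the edgeR exact test (the study's test), DESeq2 1.42.0, other scalings and filters, marker covariates and leaving out each library. No libraries of a group were alike within sampling noise (lowest chi-square per degree of freedom 30.9). Fits and correlations were tested on simulated data. The labels name no batch.

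The 10 genes, the pathway list and the marker lists were chosen with earlier results of these data known. The FOXO motif was chosen after other motifs had been searched in the same windows. Named pathway genes were those with unadjusted p under 0.05 (at most 10, smallest first) and a set fixed by role. Gene positions and promoter windows are from RefSeq (GRCm38.p6). Some genes of these lists are not reported here by name.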

Additional observations from a re-analysis of the deposited data

How the results depend on the processing

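The count of the 10 genes called and of the 76 other pathway genes called was 0 in all 17 other fits. Over all genes the quasi-likelihood test called 6, the edgeR exact test 18 and DESeq2 21, and leaving out 1 library gave 4 to 6; the cause of the difference was not tested. Igf1r, Irs1, Akt1, Akt2 and Tbc1d4 kept their direction in all 17 fits, and the other 5 members changed it in at least 1. The lowest adjusted p of a member in any fit was 0.630 and the lowest unadjusted p 0.0196, both for Tbc1d4 with the oligodendrocyte covariate.

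The sign of the log2 fold change turned for Pik3r1 (-0.062), Foxo1 (-0.40), Igf2 (0.67) and Igfbp2 (0.090) with the oligodendrocyte covariate, for Irs2 (-0.031) and Foxo3 (-3.1e-04) with the neuron covariate, for Foxo3 (-0.0037) with upper-quartile scaling, and for Gsk3b (-0.0013), Slc2a1 (0.0018), Igf2r (-0.031) and Foxo3 (-0.016) with an astrocyte covariate that was added after seeing the data. Leaving out 1 library gave ranges of -0.23 to 0.088 for Insr, -0.096 to 0.17 for Irs2, -0.014 to 0.089 for Gsk3b, -0.13 to 0.19 for Foxo1, -0.049 to 0.052 for Foxo3, -0.020 to 0.53 for Gsk3a, -0.78 to 0.29 for Igf2, -0.16 to 0.57 for Igf2r, -0.082 to 0.033 for Igfbp2, -0.25 to 0.091 for Tsc2 and -0.038 to 0.011 for Slc2a1. Without a change of sign, the ranges were 0.24 to 0.48 for Igf1r, 0.068 to 0.35 for Irs1, 0.017 to 0.28 for Pik3r1, 0.043 to 0.21 for Akt1, -0.29 to -0.069 for Akt2, -1.58 to -0.63 for Tbc1d4, 0.14 to 0.51 for Igf1 and 0.11 to 1.35 for Tbc1d1. No paired analysis was possible because the columns used carry no replicate numbers. The comparison of immunoprecipitate with homogenate was not run. Low counts kept 7 of the 83 other pathway genes out of the test.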
